A study of Bos taurus with 6 samples.

Results

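Solute carriers are membrane proteins that move sugars, amino acids, ions, metals, vitamins and other small molecules across the cell surface and across the membranes of the Golgi apparatus, the mitochondria and other organelles. Their genes carry symbols made of SLC, a family number and a member number. On the Bovine Genome Array, 250 probe sets with a single annotated symbol of that form, apart from SLC2A1 and SLC2A3, represented 177 genes of 42 families, out of 9171 genes named on the array. The value of a solute carrier gene was the mean of its probe sets, and 51 of the 177 genes had more than 1. A pair of symbols meets the form without naming a carrier: SLC4A1AP is an adaptor protein, and SLC7A6OS lies on the strand opposite to a carrier gene.

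The arrays compared micromass cultures of bovine articular chondrocytes, the cells of joint cartilage, grown as dense drops from full-thickness cartilage of the metacarpal-phalangeal joint. The 3 untreated cultures received vehicle and the other 3 received TGF-β1 at 5 ng/ml, in both cases for 8 hours. The labels name no breed, age or genetic change. Arrays with the same replicate number were treated as pairs. The comparison asks which transporter genes responded to TGF-β1, a growth factor that regulates cartilage matrix.

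Chondrocytes live in tissue without blood vessels and take up glucose, amino acids, sulfate and other solutes that diffuse through the matrix. Sulfate brought in by solute carriers is activated by the PAPSS enzymes and carried into the Golgi apparatus, where it is attached to the sugar chains of aggrecan. Nucleotide sugar carriers of the SLC35 family supply the sugars of the same chains, mitochondrial carriers of the SLC25 family exchange metabolites with the cytosol, and bicarbonate carriers of the SLC4 family help to set the pH of the cell.

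All values are log2 signals centred on the median of the 6 arrays, so that 0 marks the middle of the arrays for a probe set, and a value says nothing of how strongly a gene was expressed. Genes can be compared by their differences only, and it cannot be told from these values whether a gene was expressed at all. For the same reason the cell type could not be checked by the level of its markers. Array medians lay between -0.01 and 0.02. Replicate 3 stood apart in both groups, with a median of 2.30 untreated and 2.38 with TGF-β1 over 12 cell cycle genes, against -0.26 to -0.05 on the other arrays. A list of 4 macrophage genes had medians of 0.59 and 0.62 on the arrays of replicate 1 and of -0.19 to 0.02 elsewhere. In replicate 1 its members were split, with CD14 and CD68 at 1.18 to 1.47 and AIF1 and PTPRC at -0.02 to 0.06. The median of 5 fibroblast genes was -0.43 and -0.61 in replicate 1 and -0.13 to 0.18 elsewhere. This list was split as well, with COL1A2 and COL3A1 at -2.28 to -1.35 in replicate 1 and THY1 at 0.206 and -0.003. The median of 8 chondrocyte genes was 0.43 and 0.67 in replicate 2 and -0.29 to -0.21 in the others. The array of TGF-β1 replicate 2 had a median of 1.53 over 18 spike-in probe sets, against -0.17 to 0.06 on the others. In a culture, less RNA of a gene per cell and fewer cells that express it cannot be told apart.

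With TGF-β1, 5 solute carrier genes rose and 3 fell. Those that rose were the bicarbonate carrier gene SLC4A7, the amino acid carrier genes SLC38A3 and SLC6A20, the zinc carrier gene SLC30A5 and the nucleotide sugar carrier gene SLC35A3. Those that fell were the mitochondrial carrier genes SLC25A1 and SLC25A37 and SLC35G1, a further member of the SLC35 family. The other 169 did not pass an adjusted p of 0.05 in the paired fit, a limma model with the replicate number as a term and Benjamini-Hochberg adjustment over all 9171 genes.

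The share that rose was 2.82% of the solute carrier genes, beside 2.34% of all genes, and the share that fell was 1.69%, beside 4.62%. In counts without a fitted spread, the groups did not overlap in 9 genes that were higher with TGF-β1 (5.08%, against 5.14% of all genes) and in 6 that were lower (3.39%, against 5.90%). All 3 pairs were higher in 35 genes, or 19.8% beside 19.9%, and lower in 28 genes, or 15.8% beside 24.4%. The median difference was 0.003 over the solute carrier genes and -0.010 over all genes, and the median size of the difference was 0.11 and 0.12. The median standard error was 0.10, and the median half-width of the 95% confidence interval was 0.24. A difference below 0.24 was thus within the error for a typical gene. Standard errors and intervals here and below are those of limma, which draws the spread of each gene towards a value shared by all genes. They can be smaller or larger than those of the 3 paired differences taken alone. An absolute difference over 0.5 was seen in 7 solute carrier genes, 3.95% of them, beside 6.53% of all genes. These shares are descriptions of the set and were not tested against the other genes. The smaller groups described next hold few genes, and their counts are likewise to be read against the 2.34% and 4.62% of all genes that rose and fell. Each group takes whole families by their number and is named by what the families mainly carry. Some members thus carry other solutes, or are not carriers.

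The 8 calls rested on the pairing. Without the replicate number in the fit, limma called 0 of the 177 genes and 0 of all 9171. An unadjusted p under 0.05 was then found for 4 solute carrier genes that were higher and 1 that was lower, and for 551 of all genes.

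SLC4A7 encodes a sodium-bicarbonate cotransporter that brings base into the cell. Its signal in untreated replicates 1, 2 and 3 was -0.21, -0.19 and -1.23, and with TGF-β1 it was 0.81, 1.23 and 0.19. Every treated array lay above every untreated one, and in both groups replicate 3 was the lowest. The difference was 1.28 ± 0.11 (SE, n = 3 pairs), 2.43-fold, with a 95% confidence interval of 1.02 to 1.55 and an adjusted p of 0.00235 in limma. The call held without each replicate in turn. Its only probe set was on the list that the study chose on these arrays, without a gene name there, so the difference is not independent evidence. No other solute carrier probe set was on it.

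The other 7 SLC4 symbols lay between -0.06 and 0.16 and none passed the test. Among them SLC4A4, another sodium-bicarbonate cotransporter gene, differed by 0.15 (adjusted p = 0.49 in limma), and SLC4A2, an anion exchanger gene, by -0.04 (adjusted p = 0.88). The genes in the families of ion, pH and phosphate carriers numbered 25 in all, and SLC4A7 was the only one that passed. An unadjusted p under 0.05 in limma was found for 5 higher and 1 lower, beside 776 and 1294 of all 9171 genes. All 3 pairs were higher in 8, beside 19.9% of all genes, and lower in 1, beside 24.4%. SLC17A9 was at 0.38 (adjusted p = 0.13), and its groups did not overlap. Of the cation-chloride cotransporters, SLC12A2 was at 0.27 (adjusted p = 0.16) and SLC12A4 at -0.34 (adjusted p = 0.19).

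Among 28 genes in the families of amino acid carriers, 2 rose and 0 fell. These families were taken whole, so the 28 include SLC6A2, the creatine carrier gene SLC6A8 and SLC7A6OS. An unadjusted p under 0.05 in limma was found for 3 higher and 3 lower, beside 776 and 1294 of all 9171 genes. SLC38A3 encodes a sodium-coupled carrier of glutamine and other neutral amino acids. Untreated, it was at -0.10, 0.10 and -0.81 in replicates 1, 2 and 3, and with TGF-β1 at 0.77, 0.94 and -0.11. Treated replicates 1 and 2 were above all untreated arrays, whereas treated replicate 3 lay among them, so the groups overlapped although each pair rose. The paired difference was 0.80 ± 0.09 (SE, n = 3 pairs), 1.74-fold, with an adjusted p of 0.00509 in limma, and the call held without each replicate in turn. Its 3 probe sets did not move alike, with differences of 1.50, 0.73 and 0.18. The other 4 SLC38 genes lay between -0.26 for SLC38A7 and 0.15 for SLC38A11.

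SLC6A20 encodes a sodium-coupled carrier of proline and related imino acids. Its untreated values were -0.09, 0.03 and -0.26, and its values with TGF-β1 were 0.50, 0.59 and -0.03. The groups overlapped through treated replicate 3. The difference of 0.47 ± 0.11 (SE, n = 3 pairs) had an adjusted p of 0.0486 in limma, just inside the threshold. The call was lost without replicate 1 (0.40, adjusted p = 0.21) and without replicate 2 (0.42, adjusted p = 0.19). It was also lost after quantile normalization (adjusted p = 0.079) and with the array medians set to 0 (adjusted p = 0.056). Here and below, quantile normalization acted on centred values and so also changed the differences between arrays.

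The other genes of these families did not pass. In the SLC1 family of glutamate and neutral amino acid carriers, the median of 4 genes was -0.27. SLC1A1, a glutamate carrier gene, was at -0.33 (adjusted p = 0.085 in limma) and SLC1A5, a glutamine carrier gene, at -0.34 (adjusted p = 0.11). Both were lower in every pair. Of the SLC7 symbols, the highest was SLC7A1, which encodes a carrier of arginine and lysine, at 0.17, and the lowest was SLC7A7, a light chain of an amino acid exchanger, at -0.19. In the SLC6 family the lowest was SLC6A9, a glycine carrier gene, at -0.23 (adjusted p = 0.18), and this value moved to -0.02 without its probe set of shared sequence. SLC6A2, of the same family, was higher with TGF-β1 by 0.33 (adjusted p = 0.081), with probe sets from 0.07 to 0.79.

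**Figure D1:**
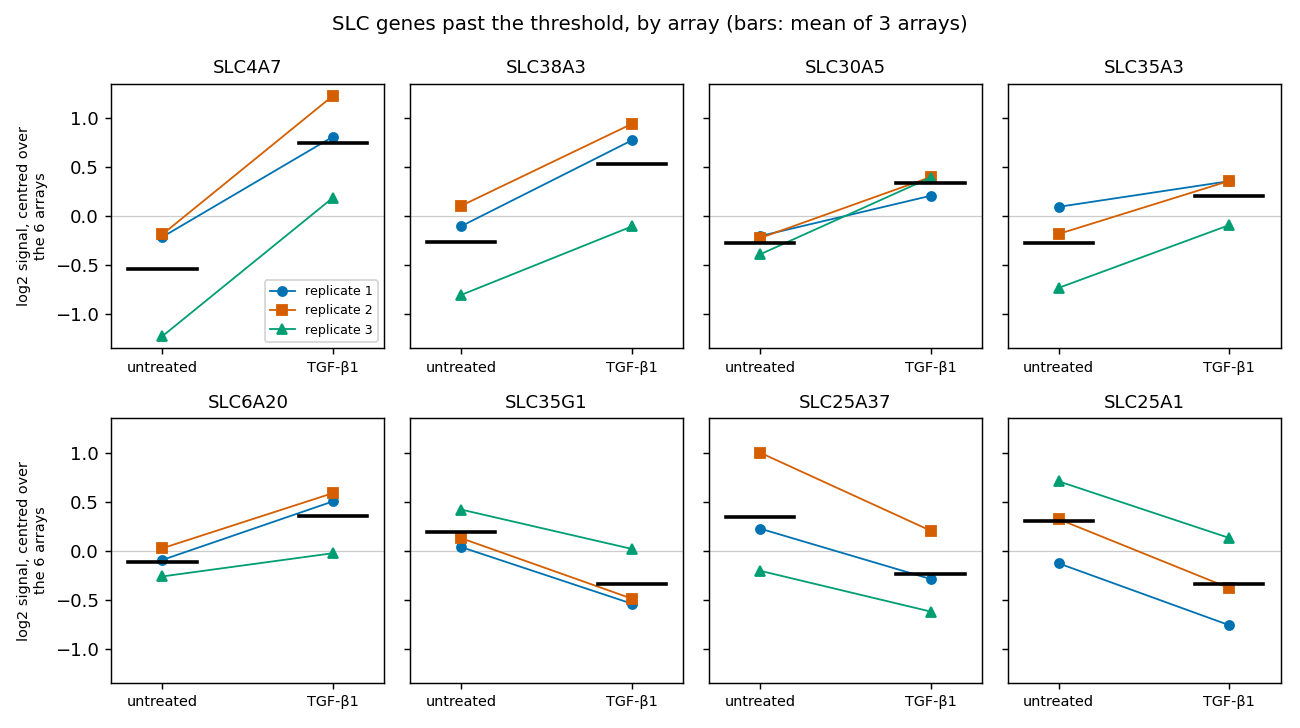
Log2 signal, centred over the 6 arrays, of the 8 solute carrier genes with an adjusted p under 0.05 in the paired fit. Lines join the untreated and the TGF-β1 array of a replicate, and black bars are means of 3 arrays. In each panel all 3 lines run the same way, while in SLC38A3, SLC35A3, SLC6A20, SLC25A1 and SLC25A37 the values of the groups overlap.

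Among 21 genes of metal and heme carriers, SLC30A5 was the one that passed. It encodes a zinc carrier of the early secretory pathway. The untreated arrays were at -0.21, -0.23 and -0.39 and those given TGF-β1 at 0.21, 0.40 and 0.39. The groups were apart, and the means of the replicates differed by at most 0.09. The difference was 0.61 ± 0.10 (SE, n = 3 pairs), 1.52-fold, with an adjusted p of 0.0199 in limma. It was 0.60 without replicate 2 and 0.52 without replicate 3, where the adjusted p was 0.10 and 0.068.

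SLC30A6, whose product forms a zinc carrier together with that of SLC30A5, was higher in all 3 pairs, by 0.30 ± 0.09 (SE, n = 3 pairs), and did not pass (adjusted p = 0.11 in limma). SLC30A1, the zinc exporter gene of the cell surface, was at -0.27 (adjusted p = 0.44), and at 0.01 without replicate 2, the only pair that differed by more than 0.5. None of the 13 genes of the SLC39 zinc importers passed. They ran from -0.34 for SLC39A11 (adjusted p = 0.15) to 0.29 for SLC39A14 (adjusted p = 0.38), with a median of -0.01. Without replicate 3 SLC39A14 was at 0.02. The groups of SLC39A11 did not overlap, with untreated values of 0.56, 0.09 and 0.08 and treated values of -0.08, -0.08 and -0.13, yet most of its difference came from replicate 1. Of the copper carrier genes, SLC31A1 was at 0.10 and SLC31A2 at -0.47 (adjusted p = 0.090).

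The mitochondrial carriers of the SLC25 family were the largest family, with 27 genes, of which 2 fell, beside 4.62% of all genes, and 0 rose, beside 2.34%. In 10 of the 27 all 3 pairs were lower, beside 24.4% of all genes, and in 4 all were higher, beside 19.9%. The 10 include SLC25A3, whose replicate 3 pair differed by only -2.7e-05. The median difference was 0.01, and the highest was SLC25A15, an ornithine carrier gene, at 0.36 (adjusted p = 0.18 in limma).

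SLC25A1 encodes the carrier that exports citrate from the mitochondrion. Its untreated values were -0.13, 0.32 and 0.71, and its values with TGF-β1 were -0.76, -0.38 and 0.13. Each pair fell by a similar amount, on replicates that differed among themselves by 0.86, so the groups overlapped. The difference was -0.64 ± 0.09 (SE, n = 3 pairs), 1.56-fold lower, with an adjusted p of 0.0101 in limma. Without replicate 2 it was -0.60 and the adjusted p was 0.057.

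SLC25A37 encodes mitoferrin 1, which carries iron into the mitochondrion. The untreated cultures gave 0.23, 1.0 and -0.20, and the treated ones -0.29, 0.20 and -0.62. Replicate 2 was the highest in both groups and the groups overlapped. The difference was -0.58 ± 0.11 (SE, n = 3 pairs), 1.49-fold lower, with an adjusted p of 0.0254 in limma. The call was lost without replicate 1 (-0.61, adjusted p = 0.075), without replicate 2 (-0.47, adjusted p = 0.10) and after quantile normalization (-0.70, adjusted p = 0.072). SLC25A28, the gene of mitoferrin 2, was at -0.20 (adjusted p = 0.29).

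Further SLC25 genes that were lower in all 3 pairs without passing included SLC25A51, a NAD carrier gene, at -0.42 (adjusted p = 0.10 in limma), and SLC25A17, a peroxisomal carrier gene, at -0.34 (adjusted p = 0.11). The ADP/ATP carrier genes SLC25A4, SLC25A5 and SLC25A6 were at 0.09, -0.06 and 0.09, and the phosphate carrier gene SLC25A3 was at -0.18. None of these passed.

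**Figure D2:**
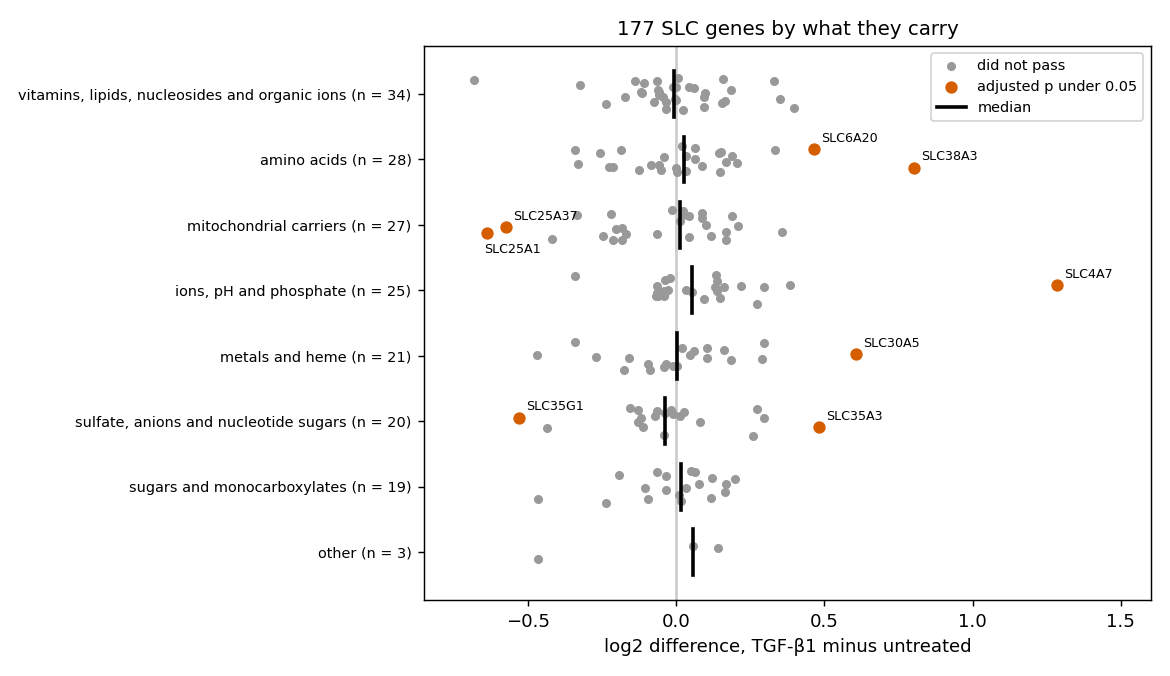
Log2 difference, TGF-β1 minus untreated, of each of the 177 solute carrier genes, in rows by what their family carries. Orange points passed an adjusted p of 0.05 in the paired fit and black bars are row medians. Most points of each row lie within 0.5 of 0, and SLC4A7 stands at 1.28, beyond every other gene.

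Of 20 genes in the families of sulfate, anion and nucleotide sugar carriers, 1 rose and 1 fell. The SLC35 family was taken whole, whatever its members carry. SLC35A3 encodes a carrier of UDP-N-acetylglucosamine into the Golgi apparatus. Its untreated values were 0.09, -0.18 and -0.73, and its values with TGF-β1 were 0.36, 0.36 and -0.09. Each pair rose, but the untreated array of replicate 1 was above the treated array of replicate 3. The difference was 0.48 ± 0.11 (SE, n = 3 pairs), 1.40-fold, with an adjusted p of 0.0433 in limma. It was 0.59, 0.45 and 0.40 without replicates 1, 2 and 3, and the adjusted p was then 0.058, 0.17 and 0.15. After quantile normalization it was 0.065.

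SLC35G1 is a membrane protein gene of the same family. Its signal stood at 0.04, 0.13 and 0.42 untreated and at -0.54, -0.49 and 0.02 with TGF-β1. The groups did not overlap, by a margin of 0.02. The difference was -0.53 ± 0.09 (SE, n = 3 pairs), 1.45-fold lower, with an adjusted p of 0.0218 in limma. The adjusted p was 0.10 without replicate 1, at -0.51, and 0.10 without replicate 2, at -0.49, and it was 0.059 after quantile normalization. The differences of its 2 probe sets were -0.78 and -0.28.

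The other 14 SLC35 genes did not pass. SLC35A2, which carries UDP-galactose, was at 0.26 (adjusted p = 0.16 in limma), and its groups did not overlap. SLC35A1, the carrier of CMP-sialic acid, was at -0.07 and SLC35D2, a carrier of nucleotide sugars, at -0.04.

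The sulfate route had 3 measured members. SLC26A11, an anion exchanger gene whose product carries sulfate, was the only SLC26 gene measured. Its untreated values were 0.14, -0.01 and 0.28, and its values with TGF-β1 were -0.19, -0.70 and 0.01. All 3 pairs were lower, with overlap, and the difference of -0.43 ± 0.11 (SE, n = 3 pairs) did not pass (adjusted p = 0.068 in limma). SLC13A4, a sodium-sulfate cotransporter gene, was at 0.01 ± 0.09 (SE, n = 3 pairs; adjusted p = 0.95). SLC35B2 encodes a carrier that brings activated sulfate into the Golgi apparatus and was at -0.15 ± 0.09 (SE, n = 3 pairs; adjusted p = 0.39). Other sulfate carriers, among them SLC26A2, were not analysed here.

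The enzymes of sulfate activation were measured beside these carriers. PAPSS2, which makes the activated sulfate that sulfotransferases use, had untreated values of -1.31, -0.21 and -1.02 and values with TGF-β1 of 0.21, 0.34 and 1.16. The groups did not overlap. PAPSS2 rose by 1.42 ± 0.27 (SE, n = 3 pairs; adjusted p = 0.0282 in limma), and without replicate 1 it was at 1.36 with an adjusted p of 0.058. This SE is that of limma, and the SD of the 3 paired differences was 0.82. The value of PAPSS2 is that of the single probe set the study printed for it, chosen on these arrays, so it is not independent evidence. PAPSS1, the other such enzyme gene, was at -0.28 (adjusted p = 0.17).

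A nucleotidase acts on the byproduct of sulfation. BPNT1 encodes the cytosolic form and fell by 0.42 (adjusted p = 0.0457), a call that was lost without each replicate in turn (adjusted p = 0.12 to 0.17). BPNT2, of the Golgi form, was at 0.35 (adjusted p = 0.086). Of PAPSS1, PAPSS2, BPNT1 and BPNT2, 1 gene rose and 1 fell, beside 2.34% and 4.62% of all genes. PAPSS2, which rose, was on the list chosen on these arrays. None of the 3 measured carriers passed, although SLC26A11 at -0.43 differed by about as much as BPNT1 at -0.42.

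No gene of the 19 in the families of sugar and monocarboxylate carriers passed, and their median was 0.02. The 5 SLC2 hexose carriers ran from -0.04 for SLC2A6 to 0.20 for SLC2A5, a fructose carrier gene, and the 7 SLC5 sodium-coupled carriers from -0.11 for SLC5A11 to 0.17 for SLC5A10. SLC16A1, a lactate carrier gene, was at -0.09 (adjusted p = 0.82 in limma). SLC16A3, the lactate exporter gene of cells that rely on glycolysis, had untreated values of 0.52, -0.10 and 0.19 and values with TGF-β1 of -0.31, -0.60 and 0.12. All pairs were lower, with overlap. Its difference of -0.47 ± 0.15 (SE, n = 3 pairs) had an adjusted p of 0.11, and without replicate 3 it was -0.66 with an adjusted p of 0.0343. It was -0.29 both without replicate 1 (adjusted p = 0.39) and without its probe set of shared sequence (adjusted p = 0.28). SLC37A4, which carries glucose 6-phosphate into the endoplasmic reticulum, was at -0.24 (adjusted p = 0.21).

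Among the 34 genes of carriers of vitamins, lipids, nucleosides and organic ions none passed either. The 8 SLC22 carriers of organic cations and anions ran from -0.24 for SLC22A8 to 0.18 for SLC22A7, and the 5 fatty acid transport genes of the SLC27 family from -0.07 for SLC27A4 to 0.10 for SLC27A2. SLC44A2, a choline carrier gene, was at -0.32 (adjusted p = 0.078 in limma). SLC23A2, a vitamin C carrier gene, was at 0.15 (adjusted p = 0.42). SLC51B, a subunit of a steroid carrier, was the lowest of all solute carrier genes at -0.68 ± 0.33 (SE, n = 3 pairs; adjusted p = 0.29), a value set by the untreated array of replicate 3, which stood at 2.04 against -0.26 to 0.18 on the other 5.

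Sodium-coupled carriers use the gradient kept by the sodium pump. Of 13 listed genes of its subunits and regulators 8 were measured, and no catalytic α subunit was among the 8. Of these, 1 rose, beside 2.34% of all genes. ATP1B1, a β subunit, had untreated values of -0.33, -0.24 and -0.38 and values with TGF-β1 of 0.43, 0.40 and 0.24. The groups were apart, and the difference was 0.67 ± 0.09 (SE, n = 3 pairs; adjusted p = 0.0086 in limma). ATP1B2 and ATP1B3 were at 0.05 and 0.04. Of 7 measured chaperones and partners of carriers none passed, among them BSG, the partner of the lactate carriers, at -0.05.

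A list of 34 measured carriers without an SLC symbol had 1 gene that rose, beside 2.34% of all genes, and 1 that fell, beside 4.62%. SFXN3, a mitochondrial serine carrier gene, had untreated values of 1.20, 0.75 and 0.66 and values with TGF-β1 of -0.70, -0.66 and -0.95. It fell by 1.65 on the log2 scale (adjusted p = 0.00175 in limma), and the groups lay far apart. Whether SFXN3 was on the list the study chose on these arrays was not analysed here, so its difference is not offered as independent evidence. TMEM165, a Golgi protein needed for glycosylation, rose by 0.54 (adjusted p = 0.0346), a call that was lost without each replicate in turn (adjusted p = 0.059 to 0.12).

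Probe sets of the same gene did not always move alike. In 9 of the 51 genes with several probe sets their differences lay over 0.5 apart, and in SLC38A3 and SLC37A4 over 1. The probe sets of SLC37A4 were at -0.79, -0.15 and 0.23, and the first of these passed as a probe set. Fitted singly, 13 of the 250 solute carrier probe sets passed, beside 1417 of all 24016 probe sets. Of the 13, which stood for 12 genes, 8 were higher and 5 lower. Of the 12 genes, 5 did not pass as gene means, namely SLC37A4, SLC16A3 (-0.83 at the probe set that passed), SLC22A5 (0.55), SLC35A2 (0.55) and SLC6A2 (0.79). Which transcripts the probe sets of a gene read was not analysed here.

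**Figure D3:**
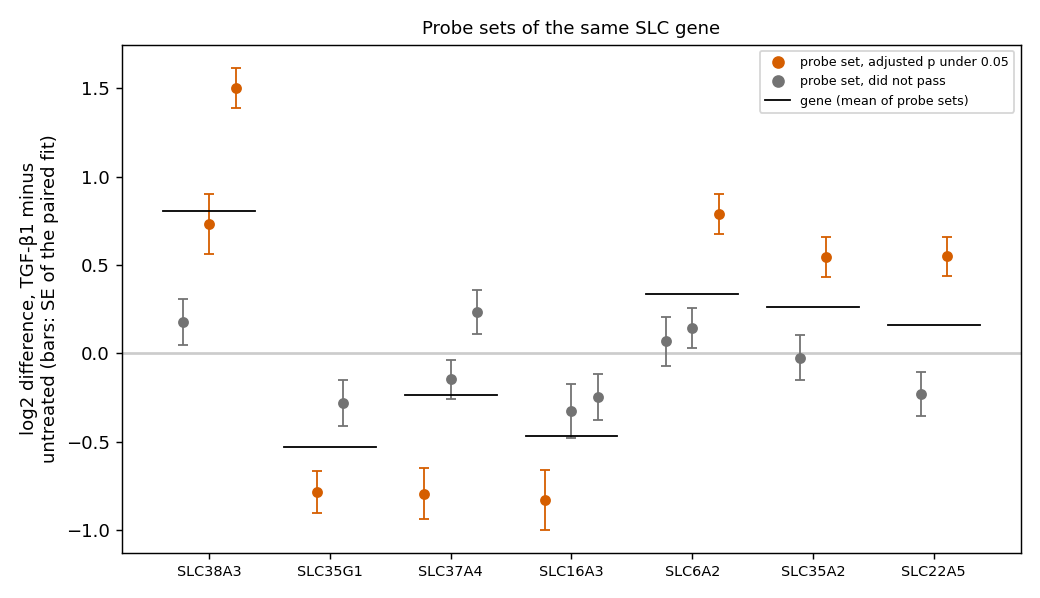
Log2 difference, TGF-β1 minus untreated, of each probe set of 7 solute carrier genes, with bars of 1 standard error from the paired fit on probe sets. Orange points passed an adjusted p of 0.05 and black lines are gene means. In SLC38A3 the probe sets ran from 0.18 to 1.50, and in SLC37A4 from -0.79 to 0.23.

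The range of the 3 replicate means exceeded the size of the TGF-β1 difference in 151 of the 177 genes, 85.3% of them, beside 84.1% of all genes. Its median was 0.32, beside 0.35 over all genes. In 17 genes, or 9.60% beside 10.6%, the range was over 1. These are descriptions, since a replicate held only 1 array of each treatment. A range over 3 means and a difference of 2 means are not like quantities, and the former tends to be the larger even where neither factor has an effect.

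In each of the 17 the mean of replicate 3 was the highest or the lowest of the 3. Replicate 3 was more than 0.5 below the mean of replicates 1 and 2 in 21 of the 177 solute carrier genes. It was above it by as much in 13 of the 177. Of all 9171 genes, 794 were below and 1239 above. The amino acid carriers went both ways. SLC7A5, the light chain of the large neutral amino acid exchanger, was at 0.01, -0.01 and -1.25 untreated and at 0.12, 0.12 and -1.04 with TGF-β1. Its heavy chain, SLC3A2, was at -0.70 and -0.72 on the arrays of replicate 3 and at -0.01 to 0.34 on the others. SLC1A4, a carrier of alanine, serine and cysteine, and SLC7A1 had replicate 3 means of -1.31 and -1.10, against 0.11 to 0.13 in replicates 1 and 2. The glutamate carrier gene SLC1A3 was high there, with a mean of 0.72 against -0.39 and 0.00. None of these 5 genes passed the test of TGF-β1.

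The phosphate carrier gene SLC20A1 had a mean of -1.14 in replicate 3 against 0.25 and 0.00 in replicates 1 and 2, the creatine carrier gene SLC6A8 of -0.98 against 0.15 in both, and the copper carrier gene SLC31A1 of -0.87 against 0.00 and 0.17. Of the 5 SLC25 genes among the 17, 3 were high in replicate 3 and 2 were low. SLC25A20, which carries acylcarnitines, had a mean of 1.34 in replicate 3 against 0.00 and -0.36, SLC25A5 of 0.86 against -0.65 and -0.12, and SLC25A12, an aspartate/glutamate carrier gene, of 0.91 against -0.12 and -0.16. SLC25A40 was low there, at -0.97 against 0.45 and 0.00, as was SLC25A37, at -0.41 against -0.03 and 0.60. SLC30A1 and SLC46A2 had their highest means in replicate 1, at 0.91 and 1.02, and their lowest in replicate 3, at -0.72 and -0.88. The cell cycle genes were at their highest on the same arrays of replicate 3, and CD14 and CD68 on those of replicate 1, and their part in these differences was not tested.

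**Figure D4:**
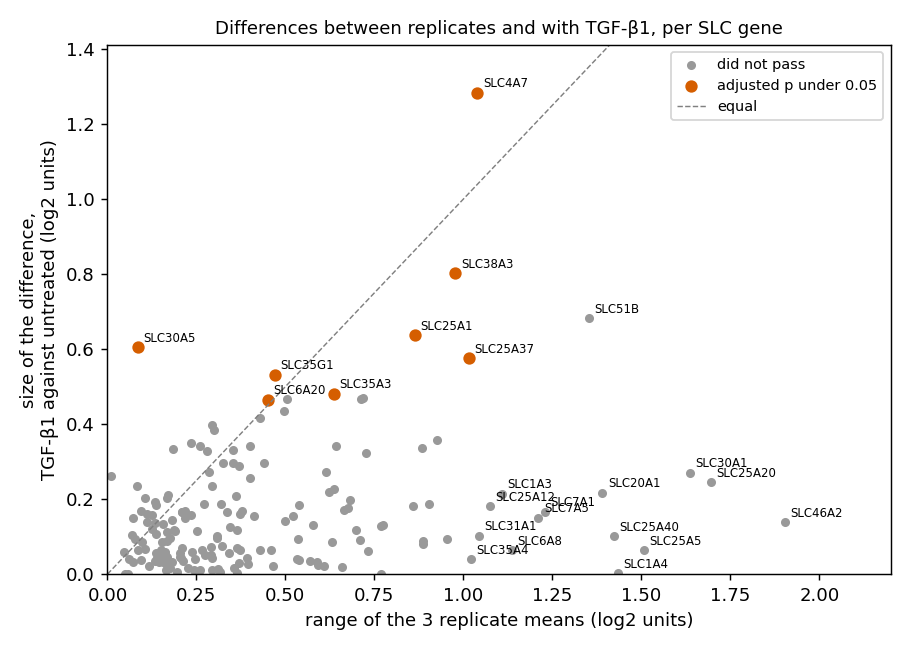
Size of the TGF-β1 difference, in log2 units, against the range of the 3 replicate means, for each of the 177 solute carrier genes. Orange points passed an adjusted p of 0.05 in the paired fit and the dashed line marks equal sizes. In 151 genes the range was the larger of these quantities, and SLC30A5 and SLC4A7 were among the exceptions.

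**Figure D5:**
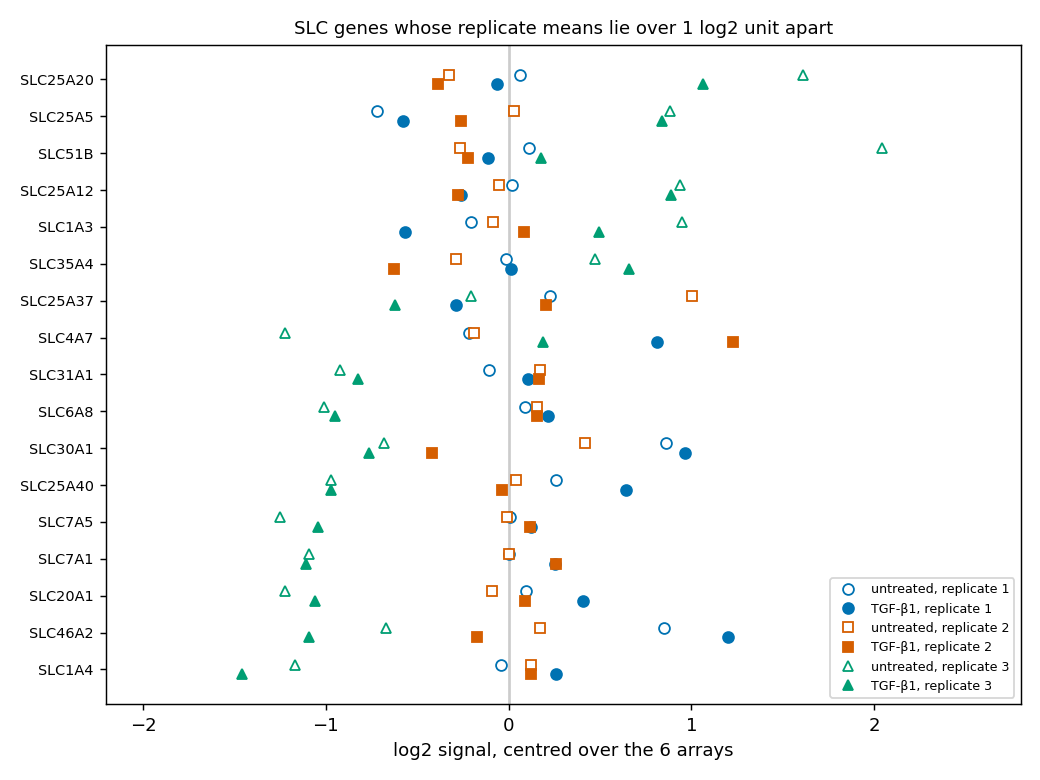
Log2 signal, centred over the 6 arrays, on each array for the 17 solute carrier genes whose replicate means lay over 1 log2 unit apart. Colours and shapes mark the replicate, open symbols are untreated and filled symbols are TGF-β1. For most of these genes the open and filled symbols of a replicate lie close together, while in SLC51B the untreated array of replicate 3 stands alone at 2.04.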

How the data were processed

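Total RNA of 6 cultures, 3 untreated and 3 given TGF-β1, was amplified and hybridised to Affymetrix Bovine Genome arrays. The deposited values are log2 signals that the authors made in GeneSpring with Robust Multichip Average, with the median of the 6 arrays set to 0 for every probe set (within 5e-07). Levels are lost in this centring, so no filter on dim probe sets could be applied. Scanner files were not used here, and the 3 arrays per group limit the precision.

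Of 24128 probe sets, 112 controls were left out and 24016 tested. The array annotation gave 1 symbol for 13292, several for 86 and none for 10638. Through their Entrez ID 13263 were matched to current symbols, and 21 were named only from the study's list. For genes in the study's table of selected genes, such as PAPSS2 and PRG4, the probe set printed there alone stood for the gene. No pair of arrays shared more than 56 values. Solute carrier symbols were grouped by family number and by what the family carries. The members and gene lists were chosen with earlier results of these data known.

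Gene means were fitted with limma 3.58.1 (R 4.3.3), lmFit and eBayes, 2-sided, with the replicate number as a term and Benjamini-Hochberg adjustment over 9171 genes at 0.05. Rose and fell refer to this paired fit, which had 2 residual degrees of freedom and a prior SD of 0.125. By the study's methods both kinds of culture came from the same cows, though no label ties a replicate number to an animal. Deviations from the group means correlated at 0.740, 0.694 and 0.845 for arrays of the same number and at -0.683 to 0.185 for others, across probe sets, and the number was therefore taken to pair the arrays. The paired fit on all 3 pairs was tested on simulated data.

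Genes named were those that passed, the highest and lowest member of each family of 5 or more, the sulfate route, genes with probe sets over 1 log2 unit apart, PAPSS1, PAPSS2 and the partners that passed. Further genes were chosen after their values were seen. Alternatives were the fit without the replicate number, each replicate left out, quantile normalization, array medians set to 0, a robust prior, single probe sets, probe sets of shared sequence left out, and the unequal-variance test of the study's methods. Quantile normalization was run on values already centred per probe set, whose array SDs ran from 0.23 to 0.47. It thus reshaped the differences between arrays rather than signal levels. Figures were drawn with matplotlib 3.10.9.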

Additional observations from a re-analysis of the deposited data

How the results depend on the processing

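The counts depended on the replicate block. Without the replicate block, limma called 0 solute carrier genes higher and 0 lower (4 and 1 at an unadjusted p under 0.05) and 0 of all genes (551), against 5, 3 and 639 in the paired fit, and the adjusted p of the 8 genes was then 0.293 to 0.999. The methods' t-test, unpaired, called 0, 0 and 0 after Benjamini-Hochberg adjustment (4, 0 and 424 unadjusted). Quantile normalization of the centred values gave 3, 1 and 355, and single probe sets 8, 5 and 1417. Leaving out each replicate gave 2 to 3 higher, 0 to 4 lower and 221 to 456 of all genes, with the lowest counts in each case without replicate 2. The cause of these changes was not tested. No difference of a named gene changed sign with a call. SLC4A7 and SLC38A3 lost their calls without the replicate block and in the methods' t-test, and kept them in the other gene-level fits. The median over the solute carrier genes stayed between -0.007 and 0.018. Without probe sets of shared sequence, SLC24A1 moved from 0.13 to 0.24, SLC6A2 from 0.33 to 0.43, and SLC16A3 from -0.47 to -0.29, and none passed.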
